A study of Mus spretus with 19 samples.

Results

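The report concerns 42 mouse genes of the PPARα pathway and of fatty acid oxidation, measured in the liver of wild Algerian mice (Mus spretus). The genes were chosen by symbol from a list of known PPARα targets and oxidation enzymes, with earlier results of these data known. All 42 symbols were found on the array, and each gene was represented by the brightest of its probes. They are 42 of the 16346 genes and transcripts tested. Every one passed the filter on dim probes, which asked that a probe stand well above background on 3 or more arrays of some site. The representing probe of 41 of the 42 was well above background on all 19 arrays. The exception was Abcd2, which passed the filter at the other sites and not at DR4.

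The livers came from male mice caught at 5 sites in southwest Spain. There were 4 groups from polluted ground: the phosphogypsum stacks (PS), and a stream called Domingo Rubio at its lower (DR1), medium (DR4) and upper (DR6) course. The last group came from the Santa Olalla lagoon (SOL), which the labels call unpolluted. All were untreated wild animals, and their ages are not given in the labels. RNA of 9 livers per site was pooled and hybridised in repeat to Agilent 1-colour arrays, 4 arrays per site and 3 for DR6. Each site is therefore 1 pool of 9 mice. The p-values given for differences between sites therefore rest on how much labelling and hybridisation varied, and hold no variation among animals. Each site also had its own slide and scan, so that slide and site cannot be told apart. Of 12 hepatocyte markers, 11 were measured on all arrays, and all 11 were well above background on every array. In bulk liver RNA, fewer cells of a type and less RNA per cell cannot be told apart.

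PPARα is a nuclear receptor that binds fatty acids and, paired with a retinoid X receptor, switches on genes for taking up and burning fat. In liver it drives the response to fasting: fatty acids are activated to acyl-CoA, carried into mitochondria on carnitine and shortened by beta-oxidation. Very long and branched chains are shortened in peroxisomes, and some chains are oxidised at their far end by Cyp4a enzymes. Thioesterases of the Acot family split acyl-CoA back into fatty acid and coenzyme A. Several genes of the pathway, among them Cyp4a10, Acot1 and Pdk4, are classic markers of PPARα activity in rodent liver.

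Values are given as relative signal, the background-corrected spot signal divided by the 75th percentile of its array. Since probes differ in brightness, the signal of a gene is compared only between sites and never with that of another gene. A gene is called changed where limma's moderated test, with Benjamini-Hochberg adjustment over all genes, gave an adjusted p under 0.05 and the change was at least 2-fold, 1 on the log2 scale. Mean values are given with the SD over arrays, n = 4 arrays, or 3 for DR6, unless another n is stated.

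The 42 genes were mostly lower at the polluted sites, by little at PS and DR6 and by more at DR1 and DR4. At DR4, 18 of the 42 genes were called lower, where 5.1% of all genes tested were called lower. At DR1, 11 were called lower, against 2.55% of all genes. At PS the only gene called was Pdk4, which was lower, against 2.18% of all genes lower. At DR6 the only gene called was Fgf21, also lower, against 2.28% of all genes. None was called higher at any of the 4 sites by limma, where 2.23% of all genes were at PS, 3.53% at DR1, 5.43% at DR4 and 4.67% at DR6. With an unadjusted p under 0.05 and no fold limit, 2 genes were higher at PS, 3 at DR1, 1 at DR4 and 9 at DR6. On the same rule 26 were lower at PS, 34 at DR1, 39 at DR4 and 20 at DR6. The share of all genes by unadjusted p is not given here, so these counts have no background. With an adjusted p under 0.05 and no fold limit, 27 of the 42 genes differed from SOL at PS, 35 at DR1, 40 at DR4 and 27 at DR6. The shares of all genes on that rule were 32.8%, 47.7%, 55% and 43.9% at the same sites. The 4 comparisons share the SOL arrays.

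The median log2 change of the 42 genes was -0.30 at PS, -0.47 at DR1, -0.95 at DR4 and -0.14 at DR6. The median over all genes was -0.01, 0.01, -0.05 and -0.00 at the same sites. DR4 gave the lowest of the 5 site means for 34 of the 42 genes, and for 25.8% of all genes. SOL gave the highest for 23 of the 42 and DR6 for 15, whereas SOL was highest for 19.5% and DR6 for 22.0% of all genes. The distribution at DR4 was shifted along its whole length, with 40 of the 42 genes below 0, while at DR6 25 lay below 0 and 17 above.

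**Figure D1:**
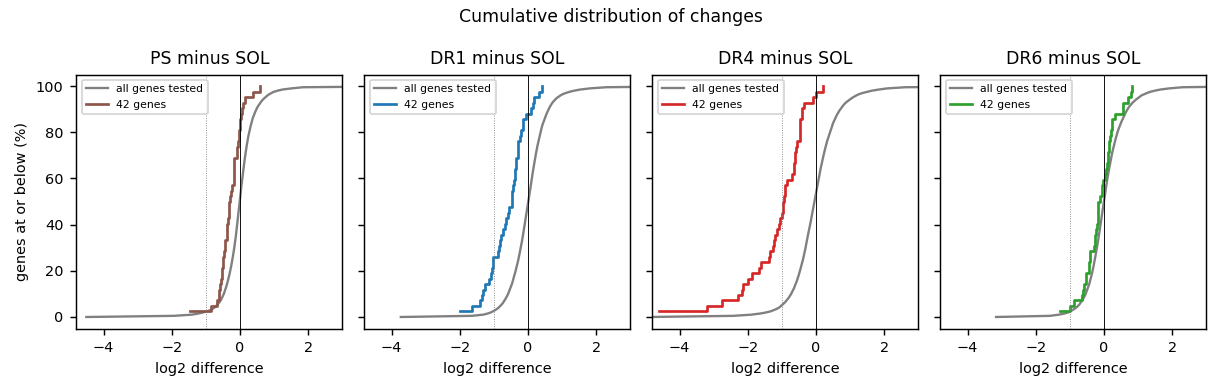
Cumulative share of genes (y axis, percent) at or below a given log2 difference between a site and SOL (x axis), for the 42 genes (coloured steps) and all genes tested (grey). The coloured curve lies furthest left at DR4, with its median at -0.95 against -0.05 for all genes, and nearly on the grey curve at DR6; Fabp1, saturated on every array, and Abcd2 at DR4, not above background, are included at their measured values.

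By pattern, 24 of the 42 genes were called at no site and 18 at 1 or more, where 17.3% of all genes were called at 1 or more in either direction. Those called at both DR1 and DR4, and at neither PS nor DR6, numbered 9: Hadha, Abcd2, Acaa1b, Decr2, Pex11a, Acot1, Acot2, Acot3 and Aldh3a2. A further 7 were called at DR4 alone: Slc25a20, Acaa2, Decr1, Ehhadh, Acot4, Acot5 and Vnn1. Fgf21 was called lower at all 3 stream sites, as were 0.416% of all genes, and Pdk4 at PS, DR1 and DR4. For the patterns of the 9 genes, the 7 genes and Pdk4, the share of all genes is not given here, so these counts have no background. A gene called at a site and not at another is not thereby shown to differ between them; the direct comparisons of the stream sites are given further on. No gene of the 42 was called at all 4 sites, where 0.177% of all genes were called lower and 0.532% called higher at all 4.

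**Figure D2:**
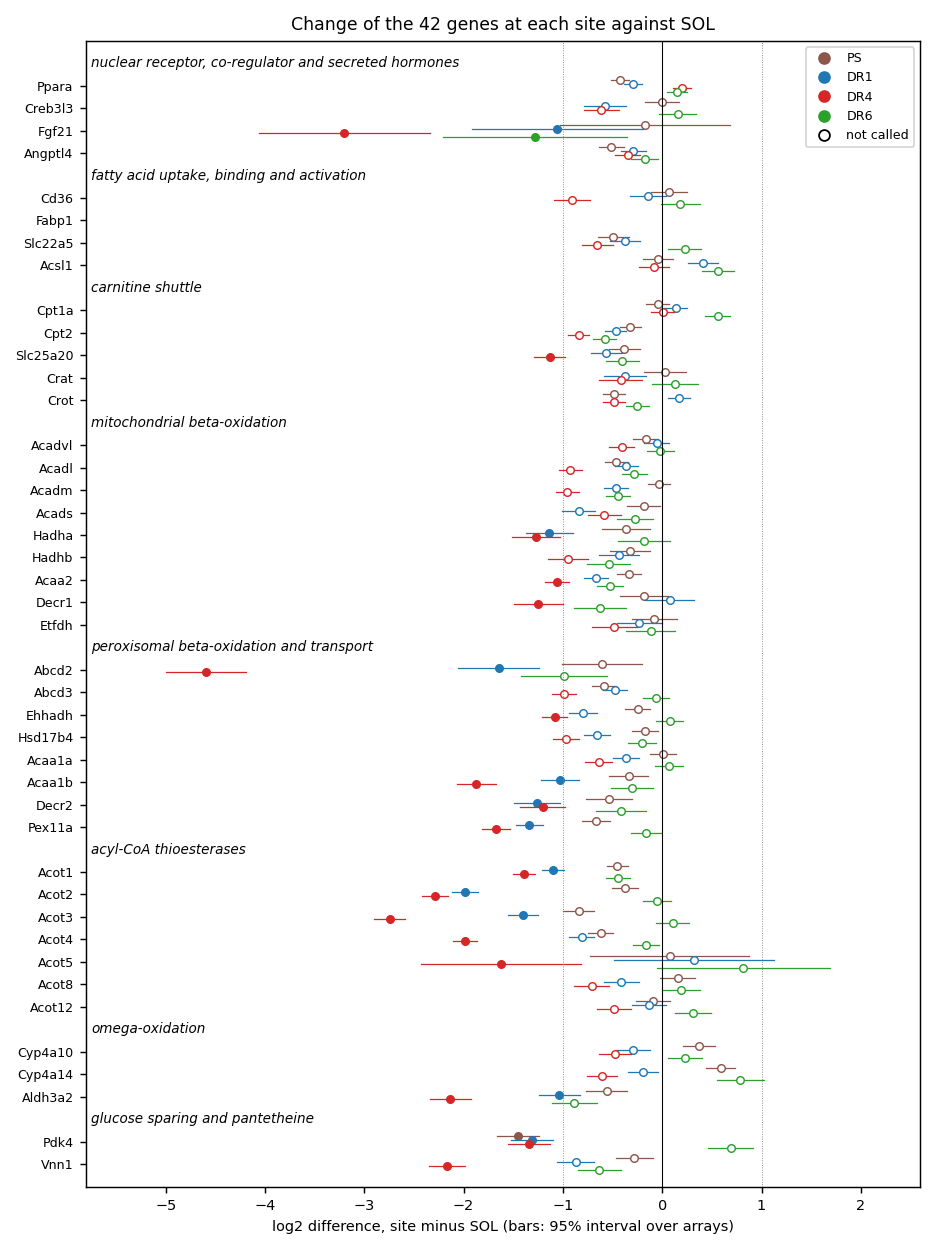
Log2 difference of each gene between a polluted site and SOL (x axis), grouped by role; filled points were called, open points were not, bars are 95% intervals over arrays and dotted lines mark 2-fold. Filled points lie only on the left, most of them red (DR4) or blue (DR1); Fabp1 was saturated on every array and is left out, and Abcd2 at DR4 was not well above background, so its point is not a measured size.

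Among the regulators, Ppara itself stayed within 2-fold of SOL at every site. Its relative signal was 2.01, 1.95, 2.02 and 2.01 at PS, 2.15, 2.20, 2.30 and 2.08 at DR1, 3.04, 3.02, 3.17 and 3.09 at DR4 and 3.00, 2.97 and 2.94 at DR6, against 2.63, 2.77, 2.72 and 2.63 at SOL. The arrays of PS and DR1 lay below, and those of DR4 and DR6 above, every SOL array. The log2 change was -0.43 (SE 0.04) at PS and 0.20 (SE 0.04) at DR4. DR4 gave the highest site mean of Ppara and the lowest of 34 of the 42 genes. The relation between the Ppara signal and the level of the other genes was not tested. Creb3l3, a liver transcription factor that works with PPARα on the Fgf21 gene, averaged 68.6 ± 2.94 at PS, 46.0 ± 2.01 at DR1 (2 arrays, the others flagged as outliers), 45.1 ± 5.16 at DR4 and 76.5 ± 3.23 at DR6, against 68.8 ± 6.01 at SOL. It was not called at any site.

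Fgf21, the fasting hormone that the liver secretes in response to PPARα, had the largest fall among the genes measured above background at both sites, at DR4; Abcd2, given as a bound further on, fell by more. Its brightest probe gave 4.48, 4.58, 4.70 and 5.02 at PS, 2.68, 4.25, 2.72 and 1.34 at DR1, 0.646, 0.544, 0.544 and 0.569 at DR4 and 2.06, 2.13 and 2.34 at DR6, against 1.65, 8.57, 7.27 and 7.59 at SOL. All DR4 arrays lay below every other array, while array 1 of SOL stood apart from the other SOL arrays and overlapped DR1. The log2 change was -3.20 (SE 0.41, adjusted p = 4.05e-06) at DR4, -1.06 (adjusted p = 0.0415) at DR1 and -1.28 (adjusted p = 0.0259) at DR6. The call at DR1 was lost on leaving out any of 6 of the 8 DR1 and SOL arrays in turn, and the call at DR6 on leaving out any of 6 of the 7 DR6 and SOL arrays. Without SOL array 2, for example, the changes were -0.82 at DR1 (adjusted p = 0.13) and -1.05 at DR6 (adjusted p = 0.0768). Without SOL array 1 they were -1.62 and -1.84, and both calls held.

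The dimmer probe of Fgf21 had no such outlier. It gave 1.57, 1.55, 1.61 and 1.73 at PS, 0.826, 1.05, 0.895 and 0.932 at DR1, 0.234, 0.222, 0.212 and 0.210 at DR4 and 0.784, 0.907 and 0.862 at DR6, against 2.39, 2.66, 2.45 and 2.50 at SOL. All 4 polluted sites lay below every SOL array on this probe. With every probe fitted on its own, it changed by -3.51 at DR4 (adjusted p = 8.47e-16), -1.44 at DR1 (adjusted p = 1.53e-10) and -1.56 at DR6 (adjusted p = 1.37e-10), and by -0.63 at PS, short of 2-fold.

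Fgf21 is also made by the exocrine pancreas, and pancreatic transcripts were present in these pools. The summed relative signal of 12 exocrine pancreas markers (of 16 listed, those measured on all arrays) ran from 218.9 to 223.6 at PS, 527.3 to 558.5 at DR1, 110.6 to 115.1 at DR4 and 1136 to 1165 at DR6, against 920.2 to 1009 at SOL. All 12 were well above background on every array. The sum was lowest at DR4, where Fgf21 was lowest, and highest at DR6, where Fgf21 lay below SOL. The part of these transcripts in the Fgf21 signal was not tested. Angptl4, a secreted inhibitor of lipoprotein lipase and a PPAR target in several tissues, averaged 131 ± 4.42 at PS, 153 ± 4.82 at DR1, 147 ± 3.76 at DR4 and 166 ± 3.83 at DR6, against 188 ± 17.7 at SOL. Its 4 changes lay between -0.51 and -0.18 on the log2 scale, and none was called.

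None of the 4 genes of fatty acid uptake, binding and activation was called against SOL by limma. Cd36, a fatty acid transporter of the cell surface, averaged 12.0 ± 0.433 at PS, 10.5 ± 1.55 at DR1, 6.11 ± 0.387 at DR4 and 13.0 ± 0.908 at DR6, against 11.5 ± 0.793 at SOL. The DR4 arrays lay below all others, with a log2 change of -0.91 that fell short of 2-fold. Macrophages express Cd36 too, and the summed signal of 7 macrophage markers was 120.5 to 125.2 at PS, 115.9 to 128.8 at DR1, 62.1 to 72.1 at DR4 and 65.1 to 70.0 at DR6, against 146.2 to 170.5 at SOL. On the dimmer Cd36 probe the arrays gave 4.35, 4.65, 4.67 and 4.75 at DR4 and 6.67, 6.30 and 6.66 at DR6, against 8.49, 6.73, 7.79 and 8.29 at SOL. The arrays of both DR4 and DR6 lay below the lowest SOL array on it, with log2 changes of -0.76 and -0.25. At PS and DR1 the changes of this probe were -0.19 and -0.16. The part of macrophages in the Cd36 signal was not tested. The 3 adipocyte markers measured on all arrays (of 7 listed) summed to 1.70 to 1.81 at PS, 2.47 to 2.73 at DR1, 1.296 to 1.589 at DR4 and 2.30 to 2.58 at DR6, against 1.08 to 1.498 at SOL. Adipocytes express both Cd36 and Angptl4, and the part of these cells in either signal was not tested.

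Slc22a5, the carnitine transporter of the cell membrane, averaged 2.84 ± 0.208 at PS, 3.08 ± 0.105 at DR1, 2.54 ± 0.0868 at DR4 and 4.66 ± 0.109 at DR6, against 4.00 ± 0.464 at SOL. Acsl1, the main acyl-CoA synthetase of liver, averaged 192 ± 5.09 at PS, 263 ± 28.5 at DR1, 186 ± 4.46 at DR4 and 292 ± 13.0 at DR6, against 198 ± 16.8 at SOL. At DR1 it was 0.41 higher on the log2 scale (SE 0.07), with 2 of the 4 DR1 arrays saturated, while its dimmer probes, not saturated, gave 0.65 and 0.62, short of 2-fold. Acsl1, Acaa1a, Acaa2 and Cyp4a10 were the 4 genes saturated on some arrays, all of them of DR1. Fabp1, the liver fatty acid binding protein, was saturated on all 19 arrays, so no difference between sites can be given for it.

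In the carnitine shuttle, 1 of 5 genes was called, at DR4. Slc25a20, which exchanges acylcarnitine for carnitine across the inner mitochondrial membrane, gave 7.62, 7.86, 7.02 and 6.89 at PS, 6.73, 6.74, 6.44 and 5.96 at DR1, 4.47, 4.37, 4.51 and 4.12 at DR4 and 7.77, 7.202 and 6.79 at DR6, against 10.9, 8.76, 9.80 and 8.92 at SOL. The DR4 arrays lay below all others, and the signal was 2.19-fold lower there (adjusted p = 1.28e-09). Cpt1a, the outer-membrane transferase that limits the rate of entry, averaged 46.0 ± 1.35 at PS, 52.3 ± 3.77 at DR1, 47.7 ± 1.18 at DR4 and 69.9 ± 2.95 at DR6, against 47.5 ± 2.01 at SOL on its brightest probe. Its DR4 and SOL arrays overlapped on that probe, and its dimmer probe, given further on, differed. Cpt2, the inner-membrane transferase, averaged 86.4 ± 2.49 at PS, 78.2 ± 4.88 at DR1, 60.3 ± 2.14 at DR4 and 72.3 ± 0.0963 at DR6, against 108 ± 2.48 at SOL. Every polluted site lay below every SOL array for Cpt2, by -0.32 to -0.84 on the log2 scale, short of 2-fold throughout. Crat, the carnitine acetyltransferase, averaged 20.1 ± 0.295 at PS, 15.3 ± 2.24 at DR1, 14.7 ± 0.312 at DR4 and 21.5 ± 2.12 at DR6, against 19.8 ± 2.33 at SOL. Crot, the carnitine octanoyltransferase of peroxisomes, averaged 49.0 ± 1.04 at PS, 77.3 ± 4.48 at DR1, 49.1 ± 1.80 at DR4 and 57.6 ± 2.47 at DR6, against 68.6 ± 2.34 at SOL, with DR1 the highest site.

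All 9 genes of mitochondrial beta-oxidation had a lower mean at DR4 than at SOL, with a median log2 change of -0.95, and 3 of them were called. Hadha, the alpha subunit of the trifunctional protein, gave 2.26, 2.28, 2.13 and 2.29 at PS, 1.39, 1.66, 1.11 and 1.17 at DR1, 1.32, 1.16, 1.16 and 1.15 at DR4 and 2.50, 2.74 and 2.41 at DR6, against 3.01, 3.41, 2.52 and 2.68 at SOL. The DR1 and DR4 arrays lay below all arrays of the other sites. Hadha was 2.20-fold lower at DR1 (adjusted p = 4.79e-07) and 2.41-fold lower at DR4 (adjusted p = 6.21e-08). Acaa2, the thiolase of the last step, gave 265, 264, 258 and 272 at PS, 217, 195, 206 and 229 at DR1, 153, 162, 163 and 163 at DR4 and 226, 224 and 246 at DR6, against 355, 312, 334 and 338 at SOL. Every polluted site was below every SOL array, and the DR4 mean was 2.09-fold lower (adjusted p = 1.15e-10). Decr1, the mitochondrial dienoyl-CoA reductase needed for unsaturated chains, gave 1.63, 1.57, 1.64 and 1.45 at PS, 1.99, 1.43, 2.21 and 1.95 at DR1, 0.723, 0.729, 0.784 and 0.764 at DR4 and 1.31, 1.02 and 1.15 at DR6, against 1.78, 1.53, 1.89 and 1.94 at SOL. It was 2.37-fold lower at DR4 (adjusted p = 9.6e-08), and its DR1 and SOL arrays overlapped. Under normexp background correction with quantile normalization the changes of Slc25a20, Acaa2 and Decr1 at DR4 were -0.96, -0.77 and -0.94 on the log2 scale, short of 2-fold. The call of Hadha at DR1 was lost under that setting (-0.82) and with the mean of its probes (-0.69).

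The other 6 mitochondrial genes did not reach 2-fold at any site. Hadhb, the beta subunit of the trifunctional protein, averaged 73.6 ± 4.87 at PS, 68.3 ± 6.10 at DR1, 47.9 ± 3.29 at DR4 and 63.8 ± 8.61 at DR6, against 92.6 ± 9.58 at SOL. The 4 acyl-CoA dehydrogenases take the first step for chains of different length. Acadm, for medium chains, averaged 189.5 ± 4.75 at PS, 141 ± 6.21 at DR1 (3 arrays), 100.4 ± 5.19 at DR4 and 143 ± 7.85 at DR6, against 194 ± 3.37 at SOL. Acadl, for long chains, averaged 24.1 ± 0.605, 25.9 ± 1.746, 17.5 ± 0.617 and 27.3 ± 0.925 at PS, DR1, DR4 and DR6, against 33.2 ± 1.66 at SOL. At DR4 the log2 changes of Hadhb, Acadm and Acadl were -0.95, -0.95 and -0.92, with no DR4 array reaching the lowest SOL array. Acads, for short chains, was lowest at DR1, with 9.08 ± 0.631 at PS, 5.79 ± 0.572 at DR1, 6.90 ± 0.205 at DR4 and 8.53 ± 0.428 at DR6, against 10.4 ± 0.962 at SOL. Acadvl, for very long chains, changed least of the 4 dehydrogenases at DR1, DR4 and DR6, with 183 ± 8.30 at PS, 198 ± 11.3 at DR1, 155 ± 5.17 at DR4 and 202 ± 2.23 at DR6, against 205 ± 15.4 at SOL. Etfdh, which passes the electrons of these enzymes to the respiratory chain, averaged 83.6 ± 3.37 at PS, 76.0 ± 12.6 at DR1, 63.3 ± 2.78 at DR4 and 81.4 ± 1.94 at DR6, against 88.9 ± 13.0 at SOL.

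Peroxisomal beta-oxidation and transport was represented by 8 genes. At DR1, 4 of the 8 were called lower and the median log2 change was -0.91, and at DR4 5 of the 8 were called lower with a median of -1.14. Abcd2, a transporter of very long acyl chains into the peroxisome, gave 0.370, 0.408, 0.402 and 0.381 at PS, 0.168, 0.149, 0.232 and 0.221 at DR1, 0.0190, 0.0188, 0.0301 and 0.0339 at DR4 and 0.274, 0.251 and 0.389 at DR6, against 0.630, 0.541, 0.592 and 0.616 at SOL. No DR4 array was well above background, and the arrays of the other polluted sites all lay below the SOL arrays. Abcd2 was at least 13.8-fold lower at DR4 (adjusted p = 3.66e-12), a bound taken from the dimmest probes still well above background on those arrays. It was 3.13-fold lower at DR1 (adjusted p = 2.54e-06), and only -0.67 on the log2 scale under normexp with quantile normalization, where the call was lost. At DR6 the change of -0.99 lay just short of 2-fold, and it passed the limit under median scaling (-1.08). Abcd3, a related transporter and an abundant peroxisomal membrane protein, averaged 150.0 ± 6.37 at PS, 163 ± 8.83 at DR1, 114 ± 4.74 at DR4 and 216 ± 14.5 at DR6, against 226 ± 7.90 at SOL, and missed the limit at DR4 with -0.99.

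Pex11a, which drives peroxisome division, gave 4.56, 4.90, 4.96 and 4.80 at PS, 2.88, 3.36, 2.92 and 2.95 at DR1, 2.57, 2.31, 2.45 and 2.24 at DR4 and 7.33, 6.61 and 6.54 at DR6, against 8.08, 7.86, 7.54 and 7.10 at SOL. The DR4 arrays were lowest, then those of DR1, then those of PS, with no overlap between them, and DR6 overlapped SOL. Pex11a was 3.19-fold lower at DR4 (adjusted p = 1.69e-12), 2.53-fold lower at DR1 (adjusted p = 9.51e-11) and 1.59-fold lower at PS, short of the limit. Acaa1b, a peroxisomal thiolase, gave 231, 232, 228 and 261 at PS, 137, 136, 149.9 and 169 at DR1, 79.6, 83.4, 78.9 and 86.7 at DR4 and 238, 238 and 256 at DR6, against 371, 275, 279 and 286 at SOL. It fell 3.66-fold at DR4 (adjusted p = 3.31e-11). At DR1 it was 2.04-fold lower, and this call was lost without SOL array 1, the highest of the SOL arrays (log2 change -0.93). It was also lost under quantile normalization (-0.85). Decr2, the peroxisomal dienoyl-CoA reductase, gave 24.3, 26.9, 33.3 and 33.2 at PS, 19.3, 16.9, 17.5 and 16.8 at DR1, 18.9, 17.3, 19.4 and 17.7 at DR4 and 32.1, 31.2 and 31.7 at DR6, against 34.6, 45.7, 41.3 and 48.5 at SOL. The DR1 and DR4 arrays overlapped, below all others, and Decr2 was 2.40-fold lower at DR1 (adjusted p = 7.88e-08) and 2.30-fold lower at DR4 (adjusted p = 6.6e-08).

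Ehhadh, the bifunctional enzyme of the classic peroxisomal pathway and a strong PPARα target in rodents, gave 209.5, 224, 219 and 232 at PS, 143, 155 and 155 at DR1 (1 array missing), 122, 123, 123 and 128 at DR4 and 254, 287 and 290.0 at DR6, against 284, 248, 253 and 266 at SOL. The DR4 and DR1 arrays lay below all others, the PS arrays just below SOL, and DR6 overlapped SOL. Ehhadh was 2.12-fold lower at DR4 (adjusted p = 3.75e-10). The Ehhadh and Acaa2 calls at DR4 were lost under quantile normalization, with log2 changes of -0.80 for Ehhadh and -0.79 for Acaa2. Hsd17b4, the bifunctional enzyme for branched chains and bile acid precursors, averaged 215 ± 9.57 at PS, 154 ± 9.17 at DR1, 124 ± 7.82 at DR4 and 211 ± 8.89 at DR6, against 243 ± 14.6 at SOL. Acaa1a, the other peroxisomal thiolase, averaged 285 ± 5.20 at PS, 221 ± 18.3 at DR1, 182 ± 1.97 at DR4 and 297 ± 23.7 at DR6, against 284 ± 11.5 at SOL on its brightest probe, and was not called on it.

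The acyl-CoA thioesterases held several of the largest changes. The genes Acot1 to Acot5 lie next to each other on mouse chromosome 12, their probes between chr12:84882869-84965664 of the mm8 build. No pair of these 5 probes shared an unbroken run of more than 7 bases. The probes were compared only with each other, so binding of a probe to the transcript of another Acot gene was not tested. At DR4 all 7 thioesterases of the list had a lower mean than at SOL and 5 were called, with a median log2 change of -1.62. At DR1 3 of the 7 were called, and none was called at PS or DR6. The probe of Acot3, which had the largest of these falls, lies on the plus strand at chr12:84948386-84948445, as printed in the deposited files 5′ to 3′.
Acot3: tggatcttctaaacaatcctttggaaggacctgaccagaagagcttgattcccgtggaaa

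Acot3, a peroxisomal thioesterase for long chains in the mouse, gave 1.44, 1.62, 1.47 and 1.48 at PS, 0.980, 1.05, 1.02 and 1.02 at DR1, 0.384, 0.357, 0.397 and 0.475 at DR4 and 2.81, 2.93 and 2.92 at DR6, against 2.47, 2.72, 2.80 and 2.76 at SOL. No pair of sites overlapped, with DR4 far below DR1 and PS, and DR6 just above SOL. It was 6.70-fold lower at DR4 (adjusted p = 1.28e-14) and 2.64-fold lower at DR1 (adjusted p = 2.22e-10). At PS it was 1.79-fold lower, short of the limit. Acot2, the mitochondrial thioesterase, gave 30.2, 30.3, 29.5 and 32.7 at PS, 10.2, 10.9, 10.1 and 9.12 at DR1, 8.65, 7.57, 8.28 and 8.10 at DR4 and 35.8, 39.6 and 39.5 at DR6, against 40.3, 39.3, 38.4 and 41.0 at SOL. It split the sites into a high set of DR6 and SOL, an intermediate PS, and a low set of DR1 and DR4. The fold was 4.88 lower at DR4 (adjusted p = 1.38e-14) and 3.96 lower at DR1 (adjusted p = 3.18e-13).

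Acot1, the cytosolic thioesterase, gave 142, 136, 142 and 146 at PS, 91.9, 82.2, 92.1 and 96.1 at DR1, 72.7, 74.1, 74.3 and 74.3 at DR4 and 136, 146 and 144 at DR6, against 204, 187, 188 and 195 at SOL. No array of a polluted site reached the lowest SOL array. It was 2.62-fold lower at DR4 (adjusted p = 9.9e-13) and 2.14-fold lower at DR1 (adjusted p = 6.51e-11). Acot4, a peroxisomal thioesterase for dicarboxylic acyl-CoA, gave 8.87, 8.84, 8.14 and 8.94 at PS, 7.27, 7.45, 8.37 and 7.42 at DR1, 3.40, 3.43, 3.20 and 3.47 at DR4 and 11.6, 11.9 and 12.3 at DR6, against 13.0, 12.5, 14.4 and 13.7 at SOL. Every polluted site lay below SOL, and the fall was 3.96-fold at DR4 (adjusted p = 3.97e-14). Acot5 gave 0.470, 0.471, 0.421 and 0.4999 at PS, 1.89, 0.311, 0.381 and 0.409 at DR1, 0.110, 0.174, 0.152 and 0.144 at DR4 and 0.769, 0.800 and 0.764 at DR6, against 0.422, 0.470, 0.446 and 0.428 at SOL. Array 1 of DR1 stood far above the other DR1 arrays, and the DR6 arrays lay above SOL by 0.82 on the log2 scale (adjusted p = 0.118). Acot5 was 3.08-fold lower at DR4 (adjusted p = 0.00162), a call lost under normexp with quantile normalization (-0.63 on the log2 scale).

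Acot8, a peroxisomal thioesterase encoded on another chromosome, averaged 19.8 ± 0.892 at PS, 13.5 ± 1.68 at DR1, 10.9 ± 0.474 at DR4 and 20.3 ± 0.611 at DR6, against 17.9 ± 1.85 at SOL. Acot12, a cytosolic acetyl-CoA hydrolase, averaged 3.60 ± 0.281 at PS, 3.50 ± 0.343 at DR1, 2.74 ± 0.169 at DR4 and 4.75 ± 0.227 at DR6, against 3.83 ± 0.316 at SOL. Neither was called against SOL, and the lowest site mean of both was that of DR4.

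**Figure D3:**
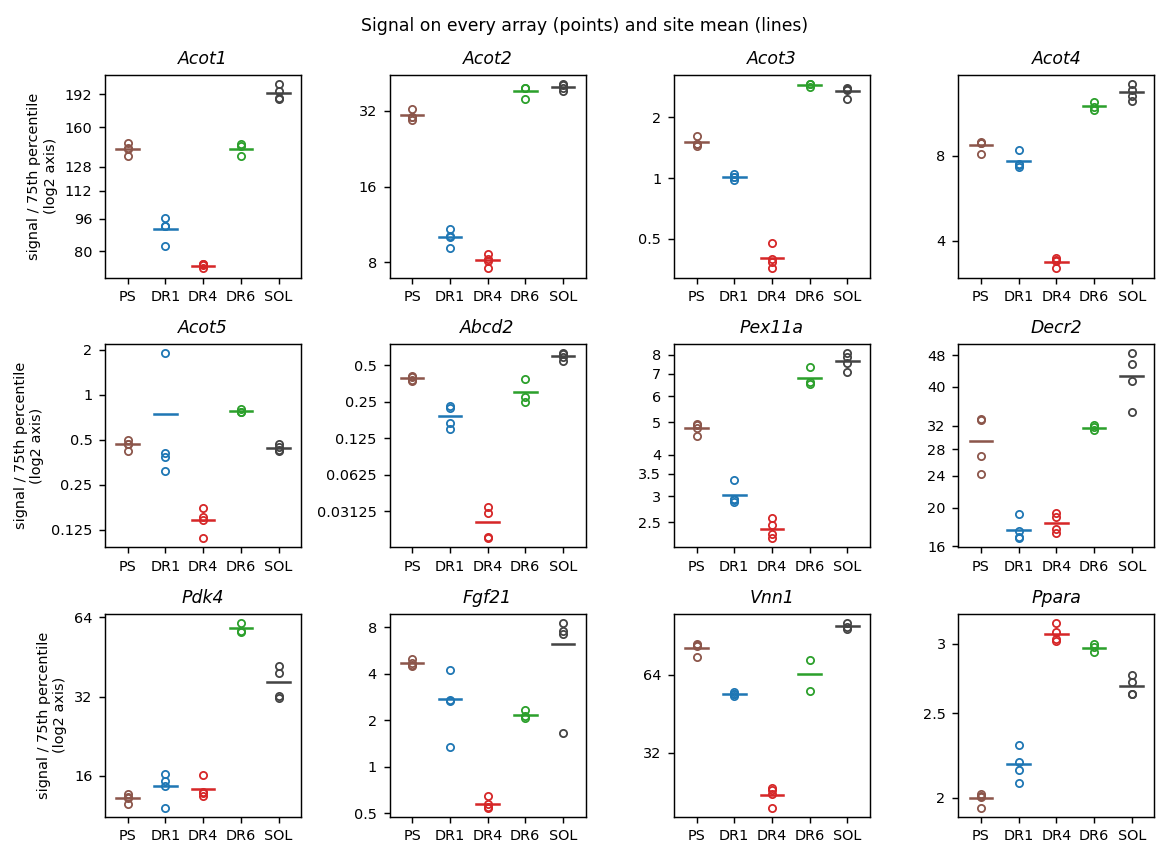
Relative signal (y axis, multiple of the array's 75th percentile, log2 scale) of 12 genes on every array (points) with the site mean (lines), the polluted sites left of SOL. For Acot1 to Acot4, Pex11a and Vnn1 the DR4 arrays are the lowest of all; array 1 of SOL for Fgf21 and array 1 of DR1 for Acot5 stand apart, and Ppara is highest at DR4.

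In omega-oxidation the 2 Cyp4a genes and Aldh3a2 followed different patterns. Cyp4a14 gave 83.8, 81.8, 82.8 and 76.8 at PS, 47.5, 52.4, 46.1 and 43.1 at DR1, 38.2, 34.7, 35.1 and 34.2 at DR4 and 93.3 on the only DR6 array with a value, against 57.6, 57.0, 51.9 and 49.9 at SOL. PS and DR6 lay above every SOL array and DR4 below, by 0.59 at PS, 0.79 at DR6 and -0.61 at DR4 on the log2 scale, all short of 2-fold. Cyp4a10 averaged 325 ± 22.1 at PS, 205 ± 15.2 at DR1 (3 arrays), 181 ± 8.28 at DR4 and 295 ± 29.3 at DR6, against 251 ± 16.3 at SOL. Its change had the sign of that of Cyp4a14 at every site, with changes between -0.48 and 0.37. Aldh3a2, the fatty aldehyde dehydrogenase, gave 17.0, 16.3, 16.7 and 16.8 at PS, 11.6, 9.27, 13.1 and 14.6 at DR1, 5.44, 5.51, 5.67 and 5.75 at DR4 and 12.8, 13.5 and 13.7 at DR6, against 25.5, 22.6, 24.4 and 25.8 at SOL. All polluted sites were below SOL without overlap. It was 4.39-fold lower at DR4 (adjusted p = 1.34e-11), 2.05-fold lower at DR1 (adjusted p = 2.48e-07) and 1.84-fold lower at DR6, short of the limit. The call at DR1 was lost without DR1 array 2, the lowest of that site (-0.91).

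Pdk4, the kinase that shuts off pyruvate dehydrogenase and so spares glucose when fat is burned, was the gene called at PS. It gave 13.3, 13.2, 12.5 and 13.6 at PS, 14.6, 16.3, 12.1 and 15.4 at DR1, 16.1, 13.8, 13.8 and 13.4 at DR4 and 56.6, 61.1 and 57.0 at DR6, against 41.8, 39.5, 31.8 and 32.3 at SOL. PS, DR1 and DR4 formed a low set below every SOL array, and DR6 lay above every SOL array. Pdk4 was 2.74-fold lower at PS (adjusted p = 7.09e-09), 2.49-fold lower at DR1 (adjusted p = 2.02e-08) and 2.53-fold lower at DR4 (adjusted p = 6.64e-09). At DR6 the change was 0.69 on the log2 scale, short of 2-fold. Skeletal muscle expresses Pdk4 strongly, and the summed signal of 8 muscle markers ran from 38.2 to 39.3 at PS, 50.2 to 53.9 at DR1, 27.9 to 29.7 at DR4 and 53.3 to 55.8 at DR6, against 33.7 to 35.2 at SOL. The sum was above that of SOL at PS and DR1, where Pdk4 was lower, and below it at DR4. At DR6 both the sum and Pdk4 were above SOL. The part of muscle in the Pdk4 signal was not tested.

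Vnn1, a pantetheinase that is a strong PPARα target in mouse liver, gave 84.0, 82.8, 83.8 and 75.4 at PS, 53.0, 54.1, 54.8 and 54.1 at DR1, 23.4, 23.0, 22.2 and 19.7 at DR4 and 73.3 and 55.4 at DR6 (1 array missing), against 96.6, 98.2 and 102 at SOL (1 array missing). All polluted sites were below SOL and DR4 was far below the rest. Vnn1 was 4.49-fold lower at DR4 (adjusted p = 2.22e-11), and its log2 changes at PS, DR1 and DR6 were -0.28, -0.87 and -0.63.

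The choice of probe mattered for part of the genes. The 42 genes had 61 probes, of which 60 passed the filter, and 14 genes had more than 1. For 13 of these 14 genes the brightest probe was the one nearest the 3′ end of the gene. At DR4, 13 of the 18 dimmer probes had a more negative change than the brightest probe of the same gene, and at PS, DR1 and DR6 it was 15, 12 and 14 of 18. Fitted on their own, 28 of the 60 probes were called lower at DR4, where 5.06% of all kept probes were. The counts of probes called lower were 3 of 60 at PS, 15 at DR1 and 3 at DR6, against 2.12%, 2.9% and 2.28% of all kept probes. At DR4 these calls added 3 genes, Abcd3, Acaa1a and Slc22a5, so that 21 of the 42 had a probe called lower. This count was chosen after the data were seen. The share of all genes with any probe called is not given here, so the count of 21 has no background. The Slc22a5 probe called at DR4 shares an unbroken run of 33 bases with a probe of Slc22a21. That Slc22a5 probe changed by -1.06, and the brightest Slc22a5 probe by -0.65. The part of Slc22a21 transcripts in the signal was not tested.

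The next probes are shown because they are among those whose call differed from, or sharpened, that of the brightest probe. The arrays were designed for Mus musculus, and the effect of sequence differences in Mus spretus was not tested. Each probe is a 60-base oligo whose mm8 coordinates span more genome than its own length, so it bridges at least 2 exons. The files do not say which part of the transcript the probes lie in beyond this. The sequences are printed as in the deposited files, 5′ to 3′. The Acaa1a probe lies on the plus strand at chr9:119195223-119196443, and the others on the minus strand. They are Abcd3 at chr3:121766081-121766220, Abcd2 at chr15:91002454-91006007 and Fgf21 at chr7:45482352-45482966.
Acaa1a, dimmer probe: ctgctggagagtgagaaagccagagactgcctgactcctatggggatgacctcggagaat
Abcd3, dimmer probe: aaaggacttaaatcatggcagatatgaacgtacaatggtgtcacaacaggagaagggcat
Abcd2, dimmer probe: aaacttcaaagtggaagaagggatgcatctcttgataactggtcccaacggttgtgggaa
Fgf21, dimmer probe: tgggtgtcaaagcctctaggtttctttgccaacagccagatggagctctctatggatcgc

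The Acaa1a probe gave 53.6, 55.4, 57.1 and 57.3 at PS, 26.1, 25.2, 26.8 and 26.9 at DR1, 19.97, 20.1, 19.5 and 18.9 at DR4 and 52.0, 50.001 and 49.7 at DR6, against 81.8, 69.0, 68.8 and 63.0 at SOL. No array of a polluted site reached the lowest SOL array. Its log2 change was -1.84 at DR4 (adjusted p = 4.82e-13) and -1.42 at DR1 (adjusted p = 4.19e-11), where the brightest probe changed by -0.64 and -0.36. The probe of Acaa1b, the other peroxisomal thiolase, changed by -1.87 at DR4 and -1.03 at DR1. The part of Acaa1b transcripts in the signal of the dimmer Acaa1a probe was not tested. The Abcd3 probe gave 1.59, 1.57, 1.47 and 1.35 at PS, 2.10, 1.96, 2.61 and 2.68 at DR1, 1.22, 1.20, 1.29 and 1.22 at DR4 and 2.90, 2.14 and 2.52 at DR6, against 3.31, 2.61, 3.53 and 2.95 at SOL. It was called at DR4 (-1.32, adjusted p = 5.99e-08) and also at PS (-1.05, adjusted p = 3.2e-06).

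The dimmer Abcd2 probe was called lower at all 4 sites, by -1.04 at PS (adjusted p = 0.00979), -2.04 at DR1 (adjusted p = 1.97e-05) and -1.20 at DR6 (adjusted p = 0.00491), with no array well above background at DR4. For Cpt1a the dimmer probe gave 4.93, 5.23, 5.66 and 5.66 at PS, 4.08, 3.79, 3.65 and 3.68 at DR1, 4.55, 4.03, 4.52 and 4.22 at DR4 and 8.42, 7.90 and 7.55 at DR6, against 6.86, 7.28, 6.42 and 7.28 at SOL. PS, DR1 and DR4 lay below every SOL array on this probe, by -0.37, -0.87 and -0.69, none of which reached 2-fold, while the brightest probe changed by -0.05, 0.14 and 0.01 at the same sites. For Acsl1 the 2 dimmer probes changed by 0.16 and 0.18 at DR4 and the brightest by -0.09, opposite in sign and none past 2-fold.

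**Figure D4:**
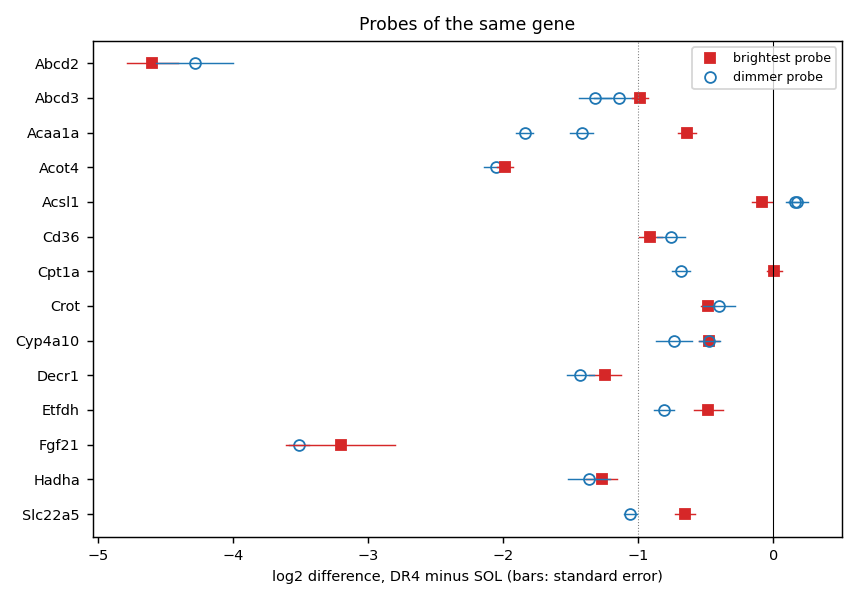
Log2 difference between DR4 and SOL (x axis) of each kept probe of the 14 genes with more than 1, the brightest as a filled square and the dimmer ones as open circles, with standard errors over arrays; the dotted line marks 2-fold. The dimmer probes of Acaa1a, Abcd3 and Slc22a5 lie left of the line while their brightest probe lies right of it; the 2 Abcd2 points are not measured sizes, since no DR4 array was well above background.

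The 3 stream sites were then compared with each other. DR4, from the medium reach, was lower than DR6, from the upper reach, for 41 of the 42 genes, and 15 were called lower, where 3.78% of all genes were called lower. None was called higher by limma, against 2.39% of all genes, and none had an unadjusted p under 0.05 in that direction. The median log2 change was -0.78 for the 42 genes and -0.05 for all genes. Against DR1, from the lower reach, 8 of the 42 were called lower at DR4, where 3.05% of all genes were: Abcd2, Fgf21, Acot5, Acot3, Decr1, Vnn1, Acot4 and Aldh3a2. DR1 against DR6 gave 4 of the 42 lower, Pdk4, Acot2, Acot3 and Pex11a, where 4.24% of all genes were called lower. In these comparisons none was called higher (2.1% of all genes for DR4 against DR1 and 3.26% for DR1 against DR6). By an unadjusted p under 0.05, 2 genes in each had a higher mean. A lower mean on that rule was found for 33 genes in DR4 against DR1 and 28 in DR1 against DR6. The share of all genes by unadjusted p is not given here for any pair of stream sites. On the adjusted p alone 28 of the 42 genes differed between DR1 and DR6, 41 between DR4 and DR6 and 32 between DR4 and DR1, where 50.8%, 44.4% and 44.7% of all genes did.

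Between DR4 and DR6 the largest difference measured at both sites was in Acot3, -2.85 on the log2 scale (SE 0.08, adjusted p = 4.65e-14). Acot5 followed, its DR6 mean lying 2.44 above its DR4 mean on that scale. Acot2 differed by -2.23 (adjusted p = 1.03e-13), Pdk4 by -2.03 (adjusted p = 2.27e-10) and Cyp4a14, on 1 DR6 array, by -1.39 (adjusted p = 1.15e-07, with the spread taken from the other sites). Cd36, not called against SOL, was called here with -1.09 (adjusted p = 9.16e-08). Abcd2 was at least 6.96-fold lower at DR4 than at DR6 (adjusted p = 5.96e-10) and at least 4.41-fold lower than at DR1 (adjusted p = 3.11e-09). Between DR4 and DR1, Decr1 differed by -1.32 (adjusted p = 1.09e-07), Vnn1 by -1.30 (adjusted p = 8.35e-09) and Aldh3a2 by -1.10 (adjusted p = 1.4e-07). Pdk4 (-0.03, 95% interval -0.24 to 0.19) and Decr2 (0.06, 95% interval -0.17 to 0.29) showed no difference between DR4 and DR1 beyond the spread of the arrays.

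With the 5 pools as the units, no gene of the 42, and none of the 16346 genes, was called. This limma fit on site means has 3 residual degrees of freedom, and the lone SOL pool was assumed to vary like the other pools. For the 4 polluted pools against the SOL pool the median log2 change of the 42 genes was -0.50 and the smallest adjusted p among them was 0.998. No gene of the 42, and 4.07% of all genes, had an unadjusted p under 0.05. In order alone, all 4 polluted pools lay below the SOL pool for 23 of the 42 genes, against 19.5% of all genes. They lay above it for none of the 42, against 18.7% of all genes. For the 3 stream pools against the SOL and PS pools the smallest adjusted p was 0.457, and 4 of the 42 genes had an unadjusted p under 0.05, all lower in the stream, against 10.3% of all genes in either direction. These were Fgf21 at -1.76 (unadjusted p = 0.0288, adjusted p = 0.457), Acadm at -0.60 (unadjusted p = 0.0338, adjusted p = 0.464), Aldh3a2 and Acaa2. Aldh3a2 changed by -1.07 in that comparison (unadjusted p = 0.0384, adjusted p = 0.469) and Acaa2 by -0.58 (unadjusted p = 0.0466, adjusted p = 0.481). All 3 stream pools lay below both others for 12 of the 42 genes and for 15.2% of all genes. They lay above both for 1 of the 42 and for 14.1% of all genes.

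Genes of the same pathway that were not among the 42 gave a mixed picture. Of 94 such genes listed, 90 were measured. At DR4, 17 of the 90 were called lower and 7 higher, where 5.1% of all genes were called lower and 5.43% higher. At PS 6 were lower and 3 higher (2.18% and 2.23% of all genes), at DR1 4 lower and 3 higher (2.55% and 3.53%), and at DR6 4 lower and 7 higher (2.28% and 4.67%). The median log2 change of the 90 was -0.07 at PS, -0.08 at DR1, -0.34 at DR4 and -0.04 at DR6. Of the 38 other oxidation enzymes, 5 were called lower at DR4 and 1 higher. Of the 19 measured genes of fatty acid transport, activation and storage, 6 were called lower at DR4 and none higher. Of the 28 measured regulators and other targets, 6 were called higher at DR4 and 3 lower.

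Of the genes of ketogenesis, the last step of hepatic fat burning, Bdh1, which makes hydroxybutyrate, averaged 57.6 ± 0.557 at PS, 74.97 ± 5.83 at DR1, 33.1 ± 0.668 at DR4 and 46.4 ± 0.854 at DR6, against 115 ± 1.14 at SOL. It was called lower at PS (-1.003), DR4 (-1.80) and DR6 (-1.32). Acat1, the thiolase that supplies acetoacetyl-CoA, was called lower at DR4 (-1.21, adjusted p = 4.31e-08). Slc16a1, a carrier of ketone bodies and lactate, was called at no site.

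Among the other genes called at 2 or more sites against SOL, Gpd1 (glycerol phosphate dehydrogenase) and Hao3 (a peroxisomal hydroxyacid oxidase) were lower at all 4 sites. The log2 changes of Gpd1 were -1.40 at PS, -1.17 at DR1, -1.77 at DR4 and -1.81 at DR6, the last on 1 array, assumed to vary like those of the other sites. Those of Hao3 were -2.19, -1.74, -1.73 and -1.36 in the same order of sites. Cidec, a lipid droplet protein, was lower at DR1 (-1.40) and DR4 (-1.71), and Acsl5, another acyl-CoA synthetase, at PS (-1.18) and DR4 (-1.16). Called higher were Klb, the co-receptor of FGF21, at DR1 (1.01), DR4 (1.11) and DR6 (1.08), and Cyp8b1, a bile acid hydroxylase, at PS (1.36), DR4 (1.68) and DR6 (2.37). Cyp4a12, a Cyp4a gene with male-biased expression in mouse, was higher at PS (1.97), DR1 (3.0999) and DR4 (2.63). Ppargc1a, a coactivator of PPARα, was higher at DR4 (1.32) and DR6 (1.41), as was Prkaa1, a catalytic subunit of AMP-activated kinase (1.01 and 1.04). Cpt1b, the muscle form of the outer-membrane carnitine transferase, was higher at PS (1.17) and DR6 (1.46). Of the 8 muscle markers, 7 had a higher mean than SOL at PS, 6 at DR1, 2 at DR4 and 8 at DR6. Their median log2 changes were 0.28, 0.57, -0.13 and 0.63 in the same order of sites. Cpt1b was not called at DR1 or DR4, and the part of muscle in its signal was not tested.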

How the data were processed

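Liver RNA pools of 9 mice per site were hybridised to 1-colour Agilent arrays (4 per site, 3 for DR6) with 45018 spots, 43379 of them for genes. Per the file headers, the scanner signals were extracted with Agilent Feature Extraction 9.5.3.1, and the deposited intensity of each spot is a background-corrected processed signal, not normalized between arrays. The authors' deposited table of the whole series holds the same intensity values, within 0.497%, and served as an alternative. Further steps by the authors are not given in the sources used here.

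Intensities were divided by each array's 75th percentile over gene spots and taken as log2. Outlier spots were set to missing, so 7 of the 42 genes lack a value on 1 or more arrays. Spots of a probe were averaged, probes well above background on 3 or more arrays of some site were kept, and the brightest kept probe stood for a gene. Gene names and mm8 coordinates are those of the SOL scanner files, and 5.84% of the gene spots have another name in the DR1 files. No genome of the species was used.

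Site means were compared with limma 3.58.1 in R 4.3.3 over all 19 arrays and 16346 genes (two-sided, Benjamini-Hochberg over all genes, adjusted p under 0.05 and at least 2-fold), and over the 5 site means for the pools. The number of arrays limits the precision. Tested on simulated data for DR4 against SOL (16003 genes, 50 changed at each size), the fit recovered 100% of genes changed by -2, 96% at -1.5, 100% at 1.5 and 98% at 2 on the log2 scale, with 4 false calls. The simulated spread was that of arrays within a site. Changes near the limit of 1 and variation between pools were not simulated.

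Array values and statistics were given for the 5 genes with the largest change at each site, for those called at 1 site, at the 3 stream sites or at all 4, and for extremes of a role group; other genes are given by site means. Other pathway genes were named if called at 2 or more sites or if ketogenic; a few items are not reported here. Alternatives were other scalings, filters, probe summaries, call rules, a replicate block and leaving out each array. The genes and lists were chosen with earlier results of these data known.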

Additional observations from a re-analysis of the deposited data

Results flagged for a closer look

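Among 162 groups of 4 arrays of a gene at a site, 19 had an array whose gap to its nearest neighbour was too large a share of the group's range by Dixon's test. Chance flags about 1 group in 20, or 8.1 of 162. Values are relative signals.

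The widest gaps were in 2 genes. Array 1 of DR1 gave 1.89 for Acot5, where the other DR1 arrays gave 0.311 to 0.409. Array 1 of SOL gave 1.65 for Fgf21, where the others gave 7.27 to 8.57, and the dimmer Fgf21 probe had no such gap on that array.

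Array 4 of DR1 was flagged in 4 genes: Angptl4 at 160.1 (others 149.8 to 150.9), Cd36 at 12.8 (9.53 to 9.98), Acsl1 at 306 (246 to 251) and Crat at 12.0 (16.0 to 16.7). Array 4 of PS was flagged in 5: Hsd17b4 at 229.8 (others 210.0 to 211), Acaa1a at 293 (282 to 283), Acaa1b at 261 (228 to 232), Acot8 at 18.5 (20.2 to 20.4) and Vnn1 at 75.4 (82.8 to 84.0). Array 1 of DR4 was flagged in Hadha at 1.32 (others 1.15 to 1.16), Acaa2 at 153 (162 to 163) and Acot1 at 72.7 (74.1 to 74.3). Array 3 of PS was flagged in Hadha at 2.13 (others 2.26 to 2.29) and Acot4 at 8.14 (8.84 to 8.94).

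The last 3 were array 1 of SOL in Acaa1b at 371 (others 275 to 286), array 3 of DR1 in Acaa1a at 194 (228 to 234) and array 2 of DR1 in Pex11a at 3.36 (2.88 to 2.95). The Acaa1b call at DR1 rested on that SOL array, as given in the report.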

How the results depend on the processing

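No named change reversed its direction in any alternative run. For the counts only their size was compared. The counts of genes called lower were 1 at PS, 11 at DR1, 18 at DR4 and 1 at DR6 against SOL, and 4 (DR1 against DR6), 15 (DR4 against DR6) and 8 (DR4 against DR1) between stream sites. DR6 gave 2 under median scaling, under quantile normalization and with the mean of all kept probes. Under normexp background correction with quantile normalization DR1 gave 7, DR6 gave 0 and DR4 against DR1 gave 3; the cause was not tested. Dropping the 2-fold limit raised the calls in either direction to 27 at PS, 35 at DR1, 40 at DR4 and 27 at DR6, and to 28, 41 and 32 between stream sites in the same order. Counting a gene where any kept probe was called, chosen after seeing the data, gave 3 at PS and 2 at DR6. The share of all genes on that rule is not given here. Leaving out each array in turn gave 1 to 1 at PS, 9 to 10 at DR1, 18 to 19 at DR4, 0 to 1 at DR6, 4 to 6 for DR1 against DR6, 14 to 15 for DR4 against DR6 and 8 to 8 for DR4 against DR1. Of the single genes' results under the other alternatives, 325 kept their side of the limits, 16 lost the call and 10 gained it. Normexp with quantile normalization accounted for 10 of the losses, out of 39 results. Dropping the 2-fold limit, which can only add calls, accounted for 7 of the gains. The deposited series table holds nearly the same intensities, so its 39 unchanged results were close to fixed in advance. The median log2 change of the 42 genes at DR4 was -0.94, -0.77 and -0.78 under median scaling, quantile normalization and normexp.

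With the array number as a replicate block, the counts were 1, 11, 18, 1, 4, 15 and 8, as without it. The numbers were not taken to pair the samples, since the deviations of only 16 of 36 same-numbered pairs of arrays correlated above 0.1 (median 0.09, range -0.16 to 0.48). Of differently numbered pairs 15 of 108 did (median -0.03), so a weaker tie between equal numbers is not excluded.

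Dim probes limit Abcd2 at DR4 to a bound, and saturation leaves Fabp1 without a value.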
